A study of Mus musculus with 18 samples.

Results

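The nuclear genes of oxidative phosphorylation were followed in ChIP-seq libraries of mouse ventricles. The members were the protein-coding genes of the deposited table whose symbol starts with Nduf, Uqc or Atp5, starts with Cox and a digit from 4 to 8, or is Sdha, Sdhb, Sdhc or Sdhd. Of 13580 protein-coding genes with a promoter peak, 87 met this rule. They comprised 32 genes of complex I, 4 of complex II, 8 of complex III, 19 of complex IV, 14 of complex V and 10 assembly factors named Ndufaf or Uqcc. A promoter peak is a region of enriched reads around the start of its nearest gene, within 5000 nt, and each gene was represented by the promoter peak with the highest sum over the 6 libraries for RNA polymerase II (RNAPII). The members had 236 promoter peaks in all.

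The libraries came from ventricles of adult hearts of 3 genotypes, with chromatin of 2 hearts per preparation. Besides WT there were *Trdn-as* KO mice, which carry a polyadenylation site in the first exon of the antisense gene, and *Mettl3* KO mice (Mettl3lox/lox:alphaMHC-MerCreMerpos), in which tamoxifen induces loss of the m6A methyltransferase METTL3 through a Cre driven by a cardiomyocyte promoter, so that other cells of the heart keep it. The methods describe tamoxifen-injected Mettl3 lox/lox mice as controls, while the control libraries are labelled WT, and whether their mice received tamoxifen is not given in the sources used here. Exact ages and sexes are not in the labels. Each genotype had 2 libraries for RNAPII (antibody against the B1 subunit), 2 for CTCF, a DNA-binding protein that served as the control target, and 1 for IgG. Nothing in the labels says that 2 libraries of a genotype came from separate animals, so p-values measure the spread between these libraries, which may be technical.

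Oxidative phosphorylation takes place in the inner mitochondrial membrane. Complex I (NADH dehydrogenase) and complex II (succinate dehydrogenase) pass electrons to ubiquinone, complex III (cytochrome bc1) to cytochrome c and complex IV (cytochrome c oxidase) to oxygen, and complex V (ATP synthase) uses the proton gradient built on the way to make ATP. The heart is among the tissues richest in mitochondria, and it uses muscle forms of some complex IV subunits. The subunits encoded by mitochondrial DNA are not transcribed by RNAPII and were not analysed here.

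The values are read counts per peak divided by a size factor per library, rounded to whole numbers by the authors. The spacing of the values gave between 1991582 and 4949641 reads in peaks per RNAPII library. *Trdn-as* KO replicate 2 was the shallowest and stood apart, with 18.6% of its mapped reads in peaks against 35.6% to 42.5% in the other 5 RNAPII libraries. The promoter peak of *Trdn-as*, the targeted gene, had values of 530 and 595 (WT) and of 140 and 100 (*Trdn-as* KO; log2 fold change −2.24, SE 0.18, adjusted p = 2.78e-14). The promoter peak of Mettl3 had 177 and 202 (WT) and 240 and 235 (*Mettl3* KO), so it does not serve as a check of those labels. All 10 cardiomyocyte markers had a tested promoter peak, led by Myh6 (10654 and 11527 in the WT libraries), whereas Myl3, Nppa and Tnni3 had WT means of 86, 103.5 and 114, at or under the 32.6th percentile of protein-coding promoters, and 4 leukocyte markers with a peak summed to between 119 and 181 per library. In bulk tissue, fewer cells of a type and less RNAPII per cell cannot be told apart.

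RNAPII levels at the member promoters lay above the middle of all protein-coding promoters. Differences were tested with limma on log2(value + 1) over all 6 RNAPII libraries for peaks reaching 10 in 2 or more libraries, with Benjamini-Hochberg adjustment over 52655 peaks, so fold changes understate the change of low peaks. 82 of the 87 members passed this filter, as did 12097 protein-coding promoters in all, which serve as the background below. In WT, the median member value was 271.5 over all 87, against 188.5 over the background. The background was not matched for this level, and no share given below was adjusted for it. Per kb of peak, the scale on which genes are compared here, the medians were 188.9 and 143.2, and 60 members lay above the background median. The order of genes on this scale depends on the width of their peaks. Relative to mapped reads, RNAPII exceeded IgG by a median of 15.8-fold in WT, 9.49-fold in *Trdn-as* KO and 13.6-fold in *Mettl3* KO, over the members with more than 3 IgG reads. Over the background the same medians were 13.5, 8.16 and 11.9. The set with more than 3 IgG reads held 83 members in WT and differs by genotype. The IgG libraries had 810801 (WT), 272217 (*Trdn-as* KO) and 428958 (*Mettl3* KO) reads in peaks, so these medians are no comparison of genotypes.

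**Figure D1:**
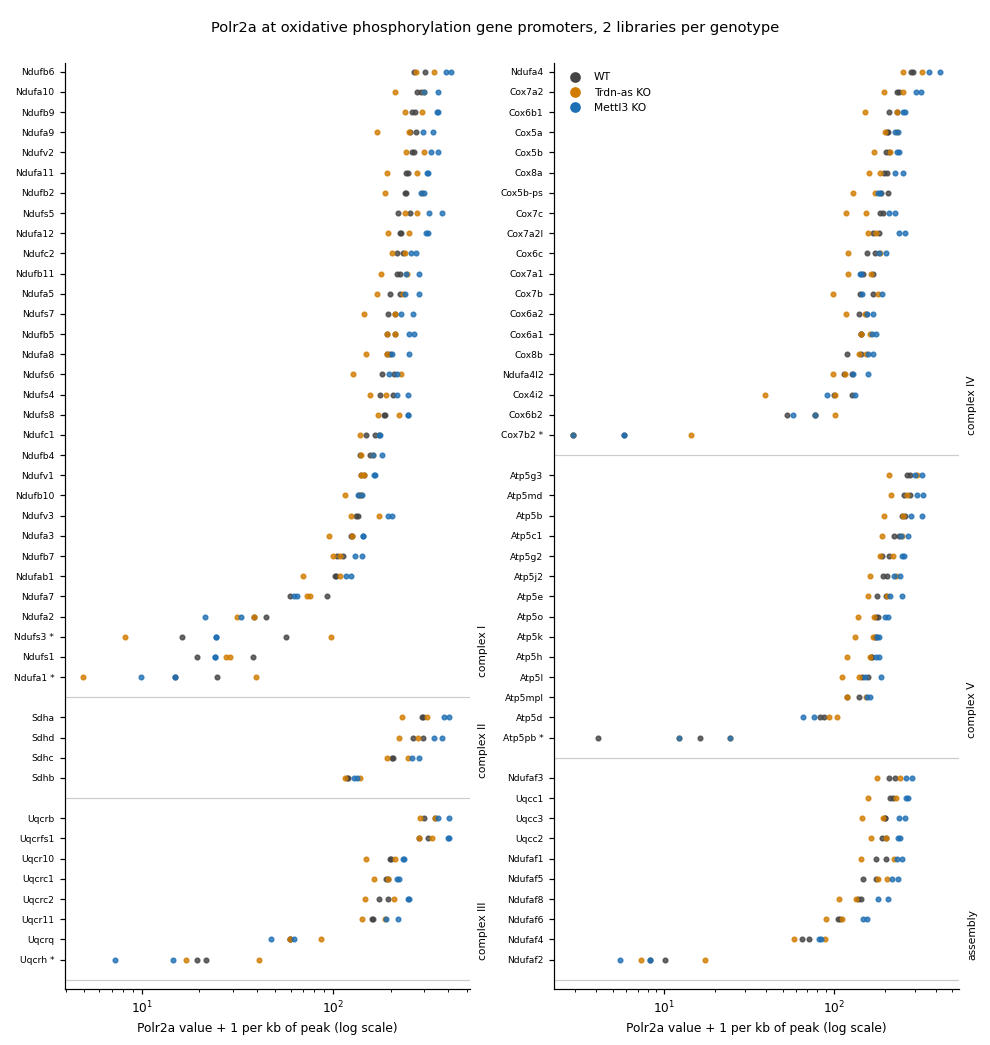
RNAPII value plus 1 per kb of peak (log axis) at the promoters of the members, grouped by complex and ordered by the WT mean, with a dot per library (grey WT, orange Trdn-as KO, blue Mettl3 KO); an asterisk marks the 5 members under the filter. WT means lie between 130.5 and 220.1 per kb from the lower to the upper quartile, and the members under the filter lie far to the left in their complexes.

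In complex I, Ndufb6, an accessory subunit of the membrane arm, had the highest level per kb, with 289 and 331 (WT), 368 and 295 (*Trdn-as* KO) and 425 and 453 (*Mettl3* KO), or 283.4 per kb in WT. The core subunit Ndufv1, which binds NADH and FMN, had 374 and 384 (WT; 142.2 per kb), and Ndufs4, an accessory subunit, had 148 and 172 (189.8 per kb). In complex II, Sdha, the flavoprotein that oxidizes succinate, led per kb with 364 and 370 (293.8 per kb). The membrane anchors Sdhd and Sdhc followed with 278.4 and 203.8, and the iron-sulfur subunit Sdhb with 118.9 per kb. Sdhb had the widest peak (4849 nt) and, undivided, the highest WT mean of this complex (576.5). Uqcrb of complex III was the highest member of all at 319.6 per kb, ahead of the Rieske iron-sulfur protein gene Uqcrfs1 at 297.3, while the core proteins Uqcrc1 and Uqcrc2 had 191.4 and 183.7. Ndufa4, now counted as a complex IV subunit, led that complex at 287.9 per kb. Of the nuclear subunits around its catalytic core, Cox5a had 207.8 and Cox5b 206.1 per kb. Complex V was led by Atp5g3, a gene of the membrane c ring, at 276 per kb, with the catalytic β subunit gene Atp5b at 258.1 and the γ subunit gene Atp5c1 at 235.3. The assembly factors ran from 221.1 per kb at Ndufaf3 down to 8.27 at Ndufaf2.

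The lowest members were mostly represented by a peak away from their own start. This held for 9 of the 10 members with the lowest level per kb. The peak of 70 members covered the annotated 5′ end of the gene and that of 17 did not. For 10 of these 17, a peak at the start existed but was annotated to another gene, since the table assigns each peak to a single gene. Ndufs1, a core subunit of complex I that carries iron-sulfur clusters, was represented by a peak with 23 and 46 (WT), while the peak over its start, assigned to the neighbour Eef1b2, had 304 and 307. Uqcrh, the hinge protein of complex III, had 7 and 8 in its own peak and 606 and 620 in the peak assigned to Lrrc41. The 5 members under the filter were Ndufs3, Ndufa1, Uqcrh, Cox7b2 and Atp5pb, and 4 of them had such a neighbour-assigned start peak. The 10 start peaks had WT means from 99.5 to 613, and none passed the test in any comparison (lowest adjusted p = 0.127, with an unadjusted p under 0.05 at 0, 1 and 4 of them in *Trdn-as* KO against WT, *Mettl3* KO against WT and *Trdn-as* KO against *Mettl3* KO, beside 4.77%, 25.6% and 31.6% of all promoters tested). Cox7b2, a testis form, had values from 0 to 4, and no peak lay within 500 nt of its start. Genes with no promoter peak of their own were not analysed here, among them Cox4i1, Atp5a1, Atp5g1 and Cox8c.

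Sequence features of the promoters were described in the RefSeq windows from 250 bases before to 50 bases after the start (GRCm38.p6, a build older than the peaks, whose coordinates were not combined). 76 windows of 72 members matched by symbol. Nuclear respiratory factor 1 (NRF1), the ETS factor GABP, YY1 and the estrogen-related receptors (ERR) are known regulators of respiratory genes, and short forms of their motifs were searched by letters on both strands. The NRF1 core GCGCATGC occurred in 11 of 76 member windows (14.5%) against 2.71% of all 32851 windows. The ETS motif CCGGAAG occurred in 18 (23.7% against 8.86%), the YY1 motif ATGGCGG in 11 (14.5% against 4.05%) and the ERR site AAGGTCA in 9 (11.8% against 4.72%). Of the 11 windows with the YY1 motif, 9 belonged to complex I, which had 30 of the 76 windows. The GC box GGGCGG was in 34 windows (44.7% against 35.7%), CCAAT in 33 (43.4% against 37.4%) and TATAAA in 9 (11.8% against 13.6%). Much of this background is made of genes with no promoter peak. Over the 13184 windows of the protein-coding genes with a promoter peak, the shares were 4.54% for NRF1, 14.8% for ETS, 6.77% for YY1, 3.38% for ERR, 59.6% for the GC box, 36.9% for CCAAT and 8% for TATAAA, so that the GC box was less frequent in members than in this set. Matches of different motifs overlapped in 1 member window, that of Ndufs3. A ratio of observed to expected CpG over 0.6 was found in 80.3% of member windows. It was found in 35.8% of all windows and in 63.3% of those of genes with a promoter peak. The motif shares were not matched for base composition. A match is a description of letters and not a binding site. The 4 windows below show the member with the highest RNAPII level per kb among those with each of the 4 factor motifs, and 2 more show Cox7a1 and Cox7a2, whose RNAPII ratio is described further on. Capitals mark every match of the 7 motifs on either strand.
Ndufa11 (NRF1 core in both orientations, chr17:56717512-56717811, plus strand): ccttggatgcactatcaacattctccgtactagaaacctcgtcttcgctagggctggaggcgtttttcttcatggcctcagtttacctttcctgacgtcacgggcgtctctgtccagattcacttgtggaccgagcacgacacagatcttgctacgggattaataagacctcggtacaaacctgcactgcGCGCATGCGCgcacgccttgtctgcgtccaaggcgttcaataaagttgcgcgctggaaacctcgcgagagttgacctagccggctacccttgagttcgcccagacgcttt
Ndufb6 (ETS and GC box, chr4:40279372-40279671, minus strand): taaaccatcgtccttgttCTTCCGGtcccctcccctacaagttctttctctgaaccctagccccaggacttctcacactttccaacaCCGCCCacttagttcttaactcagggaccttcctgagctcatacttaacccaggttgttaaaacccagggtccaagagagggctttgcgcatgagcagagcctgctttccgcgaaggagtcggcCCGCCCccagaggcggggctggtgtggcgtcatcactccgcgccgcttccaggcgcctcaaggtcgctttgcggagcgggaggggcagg
Ndufa9 (YY1, chr6:126849095-126849394, minus strand): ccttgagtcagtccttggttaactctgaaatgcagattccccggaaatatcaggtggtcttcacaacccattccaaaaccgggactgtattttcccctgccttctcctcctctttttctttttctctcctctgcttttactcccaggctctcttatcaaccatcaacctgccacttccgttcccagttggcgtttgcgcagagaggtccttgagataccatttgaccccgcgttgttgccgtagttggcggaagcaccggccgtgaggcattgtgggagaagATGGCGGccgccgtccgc
Sdhd (ETS, GC box and ERR site, chr9:50603800-50604099, minus strand): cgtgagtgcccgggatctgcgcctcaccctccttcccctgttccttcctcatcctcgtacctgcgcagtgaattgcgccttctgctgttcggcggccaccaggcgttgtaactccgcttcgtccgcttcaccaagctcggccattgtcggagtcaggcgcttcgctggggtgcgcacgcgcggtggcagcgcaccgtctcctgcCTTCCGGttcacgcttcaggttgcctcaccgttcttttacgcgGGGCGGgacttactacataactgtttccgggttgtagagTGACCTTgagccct
Cox7a1 (CCAAT boxes, chr7:30183921-30184220, plus strand): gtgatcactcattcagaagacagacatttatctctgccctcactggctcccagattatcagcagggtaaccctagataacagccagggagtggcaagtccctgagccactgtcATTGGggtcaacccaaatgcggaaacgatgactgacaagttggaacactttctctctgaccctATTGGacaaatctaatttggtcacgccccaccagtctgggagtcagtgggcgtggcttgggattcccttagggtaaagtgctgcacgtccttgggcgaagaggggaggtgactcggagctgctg
Cox7a2 (GC box, chr9:79759804-79760103, minus strand): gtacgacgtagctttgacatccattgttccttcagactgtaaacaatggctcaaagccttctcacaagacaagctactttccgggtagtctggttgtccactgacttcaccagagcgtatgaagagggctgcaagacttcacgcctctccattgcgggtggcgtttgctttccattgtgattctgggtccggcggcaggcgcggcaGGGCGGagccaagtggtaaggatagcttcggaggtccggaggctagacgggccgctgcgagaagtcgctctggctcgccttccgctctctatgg
In these windows the NRF1 match of Ndufa11 began 60 bases and the ETS match of Sdhd 46 bases before the start, and the YY1 match of Ndufa9 began at base 33 after it.

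In *Trdn-as* KO against WT none of the 82 tested members passed the test for a change of RNAPII, beside 0.248% of the background promoters, and the number with an unadjusted p under 0.05 was 2 (2.44%, background 4.77%). The median log2 fold change of the members was −0.08, and that of the background −0.03. With mapped reads as library size these medians were −0.68 and −0.63, and with size factors from promoter peaks −0.04 and 0.01. The 95% interval of the change lay within a log2 of −1 to 1 for 77 of the 82 members, with a median half-width of 0.37. Both *Trdn-as* KO libraries were above both WT libraries at 3 members (3.66%, background 11.4%) and below both at 10 (12.2%, background 12.4%). Cox4i2, the oxygen-regulated form of subunit IV, had the smallest adjusted p, with 61 and 47 (WT) and 48 and 18 (*Trdn-as* KO; log2 fold change −0.84, SE 0.35, adjusted p = 0.53). Its groups overlapped. Cox7c, a small structural subunit of complex IV, had 181 and 189 (WT) and 149 and 114 (*Trdn-as* KO; −0.50, SE 0.21, adjusted p = 0.54), so both knockout libraries were lower. Cox5b-ps, counted with complex IV by the rule although its symbol marks a pseudogene, had 150 and 137 (WT) and 126 and 94 (*Trdn-as* KO; −0.39, SE 0.23, adjusted p = 0.74) in a peak 4977 nt from its 5′ end, with no peak over the start. Among the other members, Ndufa9 had −0.35 (SE 0.21), and Uqcrq of complex III, in a peak away from its start, had 0.27, while the peak over its start, assigned to Gdf9, had −0.05. The 2 *Trdn-as* KO libraries differed from each other more than from WT. The 82 member values summed to 23565 and 23735 (WT), to 25549 in *Trdn-as* KO replicate 1 and to 19796 in replicate 2, the library with few reads in peaks. Without *Trdn-as* KO replicate 1, 10 members passed, all lower (background 8.2%). They were Atp5b, Atp5h, Cox4i2, Cox6b1, Cox7a1, Cox7c, Ndufa11, Ndufa9, Ndufs6 and Uqcr10. The peaks of Atp5h and Ndufs6 lay away from the start of the gene. The peak over the Atp5h start had 496 and 458 (WT) and 552 and 505 (*Trdn-as* KO; log2 fold change 0.15 with all libraries), so both knockout libraries were higher there. The peak over the Ndufs6 start, assigned to Mrpl36, had 223 and 276 against 258 and 216 (−0.07). Without replicate 2 none passed, and the median member changed sign to 0.10, beside 0.14 for the background.

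At most member promoters the RNAPII values of both *Mettl3* KO libraries were above WT, as they were at most promoters of the background. The median log2 fold change was 0.25 over the members and 0.27 over the background. Both *Mettl3* KO libraries lay above both WT libraries at 68 of 82 members (82.9%) beside 67.5% of the background, and below at 4 (4.88%) beside 7.23%. The size of this common shift depends on the scaling. With mapped reads as library size the medians were 0.11 for the members and 0.13 for the background, and with size factors from promoter peaks 0.06 and 0.08, so the changes of members are read here relative to the background. Of the 82 members, 23 had an unadjusted p under 0.05 (28.0%, background 25.6%). The test was passed by 1, where 1.73% of the background passed. Among the others, Ndufs5, an accessory subunit at the intermembrane side of complex I, had the smallest adjusted p, with 302 and 349 (WT) and 439 and 509 (*Mettl3* KO; 0.54, SE 0.17, adjusted p = 0.0963), then Ndufv3, a subunit of the NADH-binding module, with 268 and 275 against 411 and 392 (0.56, SE 0.18, adjusted p = 0.103). Both *Mettl3* KO libraries of these genes were above both WT libraries. Ndufb6 and Ndufa4 had log2 fold changes of 0.50 (SE 0.17) and 0.45 (SE 0.16). Of the members with negative values, Ndufa2 had −0.64 (SE 0.42, adjusted p = 0.47) at a low peak away from its start, while the peak over its start, assigned to Ik, had 369 and 354 (WT) against 370 and 432 (*Mettl3* KO; 0.15). Atp5d, the δ subunit gene of complex V, had 67 and 70 (WT) against 61 and 53 (*Mettl3* KO; −0.26, SE 0.28). Cox7a1, the muscle form of subunit VIIa, had 749 and 653 (WT) and 635 and 624 (*Mettl3* KO), so its knockout libraries were lower while the background was higher (−0.15, SE 0.15, adjusted p = 0.66). With promoter size factors 4 members passed (4.88%, background 5.97%), among them Cox7a1 as lower and Ndufs5 and Ndufv3 as higher. The count of called members depended on the *Trdn-as* KO libraries, which share the error estimate. It was 25 of 81 with WT and *Mettl3* KO alone (background 27.5%). Without *Trdn-as* KO replicate 1 it was 24 of 82 (background 27.4%), and without replicate 2 it was 24 of 81 (background 27.7%). All of these members were higher. In these 3 settings, the share of members called was 30.9%, 29.3% and 29.6%. Leaving out a WT or *Mettl3* KO library leaves 1 library in a compared group. The median log2 fold changes were then 0.24 to 0.28 (members) and 0.26 to 0.27 (background).

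**Figure D2:**
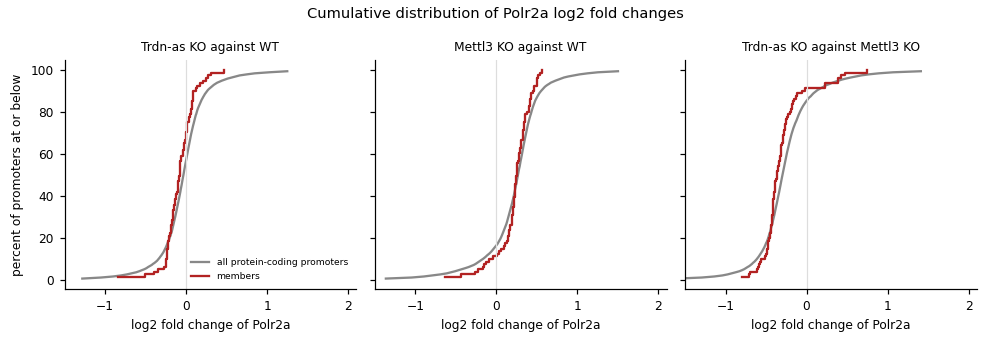
Cumulative percent of promoters (vertical axis) at or below a log2 fold change of RNAPII (horizontal axis) for the tested members (red) and 12097 protein-coding promoters (grey, from the lowest to the highest percentile), a panel per comparison. The red and grey curves run close together, with medians of −0.08 and −0.03, 0.25 and 0.27, and −0.37 and −0.30 from left to right.

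Compared directly, *Trdn-as* KO and *Mettl3* KO differed past the threshold at 1 of the 82 members and at 2.02% of the background. An unadjusted p under 0.05 was found at 40 members (48.8%) and at 31.6% of the background. The members' median was −0.37 and that of the background −0.30. Both *Trdn-as* KO libraries were below both *Mettl3* KO libraries at 59 of 82 members (72%, background 56.9%) and above at 3 (3.66%, background 4.69%). The complex I assembly factor gene Ndufaf8 had 198 and 157 against 266 and 307 (−0.69, SE 0.20, adjusted p = 0.0543), and Sdha had 385 and 287 against 476 and 504 (−0.56, SE 0.17, adjusted p = 0.0724). Cox7c and Atp5b had −0.71 (SE 0.21) and −0.45 (SE 0.14), with adjusted p of 0.0668 and 0.0869. Without *Trdn-as* KO replicate 1 the medians were −0.56 (members) and −0.46 (background), and without replicate 2 they were −0.16 and −0.13. With the 2 compared genotypes alone no member passed (background 0.143%). All 3 comparisons share libraries in pairs.

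Read against the background, the median fold change of complex II was 0.11 higher in *Mettl3* KO against WT and that of the assembly factors 0.06 higher, while complexes I and III were at 0.00 and −0.03 and complexes IV and V at −0.05 and −0.07. In *Trdn-as* KO against WT, complexes I, II and III were at 0.00, 0.01 and 0.00, the assembly factors at −0.05, complex V at −0.08 and complex IV at −0.11. With *Trdn-as* KO set against *Mettl3* KO, the assembly factors and complex II were at −0.12, complex I at −0.08, complex IV at −0.05, complex V at −0.03 and complex III at −0.02. These values belong to log2 medians, and the pooled SD between libraries of a genotype was 0.06 for complex I, 0.05 for complexes II, III and V and 0.03 for complex IV and the assembly factors. For complex IV the library offsets from WT relative to the background were −0.06 and −0.12 (*Trdn-as* KO), −0.05 and −0.06 (*Mettl3* KO) and −0.01 and 0.01 (WT), so all 4 knockout libraries were lower. Complex II offsets were 0.04 and 0.17 (*Mettl3* KO) and rest on 4 genes. The values of complex I summed to 7708 and 7872 (WT), 8553 and 6646 (*Trdn-as* KO) and 9718 and 9637 (*Mettl3* KO), and those of complex V to 5162 and 5157, 5399 and 4159, and 5849 and 6138. No test was made of the differences between complexes.

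**Figure D3:**
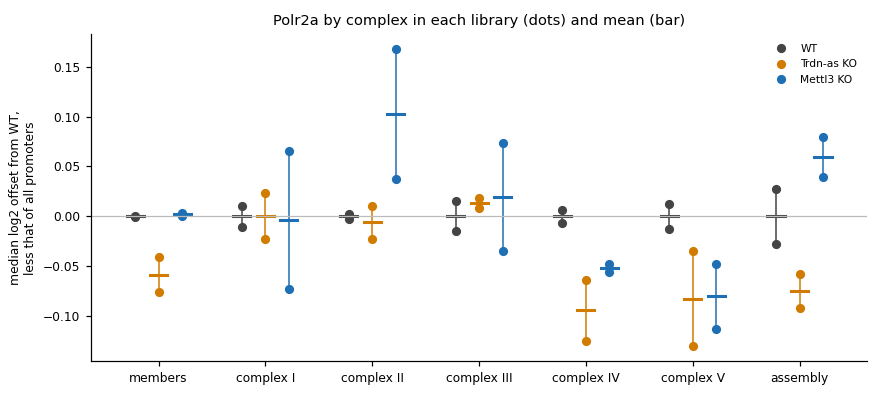
Median log2 offset of RNAPII from the WT mean in each library, less the same median over all protein-coding promoters (vertical axis), for the 82 tested members together and by complex; dots are libraries, bars genotype means, and lines join the 2 libraries of a genotype. The offsets stay between −0.13 and 0.17, and for complexes IV and V all 4 knockout libraries lie below the WT libraries.

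Some marker genes of cardiac cell types differed between the genotypes. Of 5 listed fibroblast genes, 4 passed as higher in *Mettl3* KO than in WT (Col1a1, Col1a2, Pdgfra and Tcf21), 3 passed as lower in *Trdn-as* KO when set against *Mettl3* KO (Col1a1, Col1a2 and Pdgfra) and none passed in *Trdn-as* KO against WT. Of the background promoters 1.73%, 2.02% and 0.248% passed in these comparisons. The sum over the list was 795 and 827 (WT), 1185 and 851 (*Trdn-as* KO) and 1599 and 1556 (*Mettl3* KO), with none of the 5 at 0. The 10 cardiomyocyte markers summed to 29642 and 31502 (WT), 30121 and 23089 (*Trdn-as* KO) and 30193 and 30637 (*Mettl3* KO). None of them passed in *Mettl3* KO against WT. Myh6, the α-myosin heavy chain gene, passed as lower in *Trdn-as* KO, with 10654 and 11527 (WT), 9901 and 7625 (*Trdn-as* KO) and 11283 and 11566 (*Mettl3* KO). Its log2 fold change was −0.35 against WT (SE 0.08, adjusted p = 0.0291), beside a background median of −0.03. Against *Mettl3* KO it was −0.39 (adjusted p = 0.00409), beside −0.30. The *Mettl3* KO mice carry the alphaMHC-MerCreMer transgene, and reads from its promoter and from that of Myh6 were not told apart. Of 5 smooth muscle and pericyte genes 1 passed, the pericyte marker Pdgfrb, with 217 and 257 (WT) and 410 and 405 (*Mettl3* KO), and it also passed as lower in the direct comparison of *Trdn-as* KO with *Mettl3* KO. This list summed to 354 and 448 (WT), 504 and 351 (*Trdn-as* KO) and 612 and 589 (*Mettl3* KO), and the log2 fold changes of its other 4 genes in *Mettl3* KO against WT were −0.08 (Myh11), 0.02 (Acta2), 0.38 (Tagln) and 0.55 (Rgs5). None of the 4 endothelial, 4 leukocyte and 3 adipocyte genes tested passed in any comparison. The endothelial genes summed to 1074 and 1127 (WT), 1172 and 868 (*Trdn-as* KO) and 1019 and 995 (*Mettl3* KO), and the leukocyte genes to 156 and 181, 159 and 119, and 169 and 142. Fabp4, of adipocytes and endothelium, had 1093 and 1159 (WT), 1021 and 776 (*Trdn-as* KO) and 796 and 807 (*Mettl3* KO; log2 fold change −0.49, adjusted p = 0.0525). The part of other cell types in the member values was not tested.

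Several subunits exist as a ubiquitous form and a form of muscle or another setting. For the ratio of muscle to ubiquitous form the values per kb of peak are divided within a library, which removes the scaling between libraries. Cox6a2, the form of heart and skeletal muscle, and Cox6a1 were near equal, with ratios of 0.98 and 1.07 (WT), 0.941 and 0.816 (*Trdn-as* KO) and 0.943 and 0.957 (*Mettl3* KO). The ratio of Cox7a1 to Cox7a2 was 0.712 and 0.638 (WT), 0.652 and 0.617 (*Trdn-as* KO) and 0.48 and 0.439 (*Mettl3* KO). The Cox7a1 peak was 4370 nt wide and that of Cox7a2 1255 nt, and without division by width the WT ratios were 2.48 and 2.221. Both *Mettl3* KO libraries were below all others in this ratio, in which the denominator Cox7a2 had 302 and 294 (WT) and 380 and 408 (*Mettl3* KO; log2 fold change 0.40, SE 0.18, adjusted p = 0.26). The ratio of Cox8b to Cox8a was 0.602 and 0.7 (WT), 0.825 and 0.879 (*Trdn-as* KO) and 0.619 and 0.744 (*Mettl3* KO), highest in both *Trdn-as* KO libraries. Ndufa4l2, the form known from hypoxia and smooth muscle, had 0.401 and 0.439 of the level of Ndufa4 in WT, 0.352 and 0.382 (*Trdn-as* KO) and 0.355 and 0.372 (*Mettl3* KO). Cox6b2, the testis form, was low, with 18 and 12 (WT), 24 and 18 (*Trdn-as* KO) and 18 and 13 (*Mettl3* KO), beside 255 and 229 at Cox6b1 in WT. Its ratio to Cox6b1 was 0.314 and 0.233 (WT), 0.417 and 0.485 (*Trdn-as* KO) and 0.283 and 0.208 (*Mettl3* KO), highest in both *Trdn-as* KO libraries but resting on these low values. The c-ring genes Atp5g2 and Atp5g3 had ratios between 0.684 and 0.881 in all 6 libraries, or between 1.755 and 2.259 without division by width. The *Trdn-as* KO libraries (0.722 and 0.881) overlapped both other genotypes. Both *Mettl3* KO libraries (0.836 and 0.786) were above both WT libraries (0.684 and 0.783). Cox7a2l, which encodes a factor of supercomplex assembly, had 195 and 212 (WT) and 305 and 278 (*Mettl3* KO; 0.52, SE 0.19, adjusted p = 0.18), in a peak away from its annotated 5′ end. With 2 libraries a group, an exact permutation test of these ratios cannot reach significance, and none was made.

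**Figure D4:**
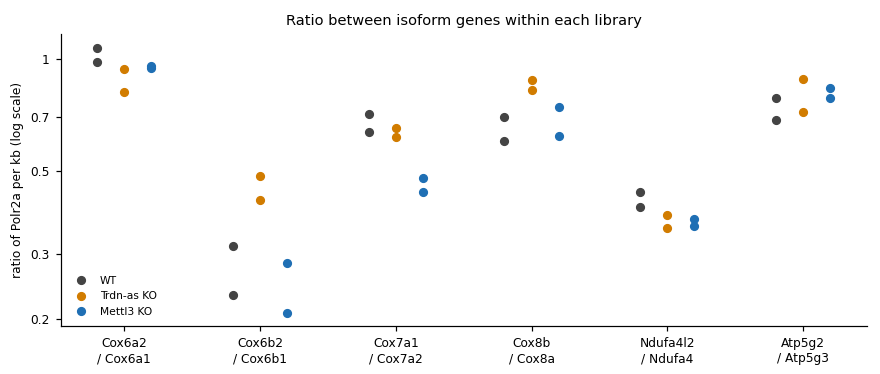
Ratio of the RNAPII value per kb between isoform genes (log axis) within each library, with dots for the 2 libraries of each genotype (grey WT, orange Trdn-as KO, blue Mettl3 KO). The Cox7a1 to Cox7a2 ratio lies at 0.439 and 0.48 in Mettl3 KO and at 0.617 to 0.712 in the other libraries, and the Cox8b to Cox8a ratio is highest in the Trdn-as KO libraries.

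The members on the X chromosome were Ndufb11 and Cox7b, both tested, and Ndufa1. Ndufb11, a membrane-arm subunit, had 331 and 344 (WT), 374 and 273 (*Trdn-as* KO) and 431 and 370 (*Mettl3* KO). Cox7b had 128 and 151, 162 and 88, and 171 and 131. Neither passed in any comparison. The 6 peaks on the Y chromosome summed to 279 and 326 (WT) and 223 and 239 (*Mettl3* KO) and were 0 in both *Trdn-as* KO libraries, so sex and genotype cannot be told apart in comparisons with *Trdn-as* KO.

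The other genes of the pathway that were listed comprised electron carriers, further assembly factors, ubiquinone synthesis, mitochondrial transcription and the regulators of these genes. Of 64 listed, 56 had a promoter peak and 51 were tested, and none passed in any of the 3 comparisons (0.248%, 1.73% and 2.02% of the background), while 2, 17 and 21 had an unadjusted p under 0.05 (3.92%, 33.3% and 41.2%, beside 4.77%, 25.6% and 31.6% of the background). In *Mettl3* KO against WT 47 of 51 were higher in both libraries (background 67.5%) and the median was 0.28. In *Trdn-as* KO against WT 5 were higher and 5 lower in both (background 11.4% and 12.4%), with a median of −0.02. Cycs, which encodes cytochrome c, had 546 and 536 (WT), 579 and 525 (*Trdn-as* KO) and 651 and 704 (*Mettl3* KO). Tfam, which packages mitochondrial DNA and takes part in its transcription, had 165 and 198, 207 and 136, and 241 and 261. Ppargc1a, the coactivator PGC-1α, had 147 and 141 (WT), 111 and 73 (*Trdn-as* KO) and 111 and 115 (*Mettl3* KO; log2 fold changes −0.67, SE 0.24, adjusted p = 0.40, and −0.35, SE 0.24, adjusted p = 0.50). All 4 knockout libraries were below both WT libraries. Ppargc1b, a related coactivator, had 1497 and 1507 (WT). Esrra had 453 and 432 (WT) and 464 and 512 (*Mettl3* KO), and Nrf1 550 and 487 and 700 and 655.

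Peaks inside member genes away from promoters were few and low. There were 15 tested peaks in 11 genes, with no value above 38, and none passed, beside 0.257%, 0.98% and 1.26% of 14803 such peaks in *Trdn-as* KO against WT, *Mettl3* KO against WT and *Trdn-as* KO against *Mettl3* KO. An unadjusted p under 0.05 was found at 1 of the 15 in each comparison (6.67%), beside 8.48%, 11.3% and 12.7% of such peaks.

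CTCF at the member promoters did not pass the test in either knockout. Of the members, 82 passed the filter of the CTCF libraries, with median log2 fold changes against WT of −0.02 (*Trdn-as* KO) and −0.06 (*Mettl3* KO), as in the background (−0.02 and −0.06). None was called, beside 0.394% and 0.156% of 12192 promoters, and 7 and 5 members had an unadjusted p under 0.05 (8.54% and 6.10%, background 8.66% and 13.2%). The smallest adjusted p in *Trdn-as* KO was that of Cox6b1, chosen here after its values were seen, with 46 and 45 (WT) and 34 and 34 (*Trdn-as* KO; −0.41, SE 0.14, adjusted p = 0.31). The median CTCF value of the 87 members in WT was 56.5, against 57.5 over the background promoters, and 41 members lay above the latter.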

How the data were processed

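ChIP-seq reads of mouse ventricles were trimmed with Trimmomatic 0.39, aligned to mm39 with STAR 2.7.11b, cleared of duplicates with Picard 3.1.1 and counted with featureCounts in a union of 101256 peaks by the authors, who removed mitochondrial reads. Tool versions are from the submitters' processing notes. The deposited values are a score per peak and library, DESeq2-normalized counts that the authors rounded to whole numbers, so no count model was used. Totals of mapped reads per library are those the study's reporting summary gives.

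The members, gene lists and tests were chosen with earlier results of these data known. Peaks reaching 10 in 2 or more of a target's 6 libraries were tested with limma 3.58.1 (R 4.3.3) on log2(value + 1) with a variance trend over the 3 genotypes, with Benjamini-Hochberg adjustment over all peaks tested and a threshold of 0.05. The script was tested on simulated data. Fold changes of a list are given as medians beside those of the 12097 best promoter peaks of protein-coding genes. The value of 1 read was estimated from the spacing of the values for RNAPII (0.945 to 2.04) and IgG (2.55 to 6.57). Read numbers, and 3 IgG reads as the floor of a ratio, cover counting error only. CTCF spacing was too fine, so its depth is unknown.

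Named were a chosen set of catalytic or central subunits (not every core subunit of complex I), isoform sets, highest and lowest members per kb, X-linked members, members under the filter, and up to 5 members per direction with the smallest adjusted p. Tools were Python 3.11.15, pandas 2.3.3, numpy 2.4.6 and matplotlib 3.10.9. Alternatives were no filter, log2(value + 5), other library sizes, only the compared genotypes, no trend, a replicate block, sums of all promoter peaks of a gene and each library left out. The peak at the gene's 5′ end (within 500 nt) was added after seeing the data. Input libraries were not analysed here. Protein sequences were not used here. The values of 1 member are not reported here and are left out of the plots of single members, while counts and medians include it.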

Additional observations from a re-analysis of the deposited data

How the results depend on the processing

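In *Trdn-as* KO against WT no member passed in any setting that kept all libraries, in *Mettl3* KO against WT the number was 1, and in *Trdn-as* KO against *Mettl3* KO 1, unless stated here. Without the filter on low values, with mapped reads as library size and without a variance trend the last counts were both 0. The background shares in these settings were 0%, 0.0166% and 0% in *Mettl3* KO against WT. In *Trdn-as* KO against *Mettl3* KO they were 0.00736%, 0.183% and 0.0413%. With a pseudocount of 5 the last count was 4 (4.88%, background 3.6%), among them Cox7c, Ndufaf8 and Sdha. With promoter size factors both were 4 (4.88% each, background 5.97% and 4.29%). With only the compared genotypes they were 25 and 0 (background 27.5% and 0.143%), and with sums of all promoter peaks the last was 0 (background 2.4%). In the order of the comparisons, leaving out a library gave 0 to 10, 0 to 24 and 0 to 60 members. In the order of the comparisons, the replicate block gave 0, 1 and 1 members (background 0.281%, 1.79% and 2.14%). Deviations of same-numbered libraries correlated at −0.0045, −0.0002 and −0.0096 for RNAPII and at −0.238, 0.0059 and −0.0095 for CTCF, so the numbers are not shown to pair libraries. No CTCF setting called a member.

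Medians less those of all promoters moved as follows. Sums of promoter peaks gave 0.0504 for complex II and −0.108 for complex IV in *Mettl3* KO against WT, and the peak at the gene's 5′ end, chosen after seeing the data, gave −0.153 for assembly factors in *Trdn-as* KO against *Mettl3* KO. Leaving out a library gave the following ranges. In *Trdn-as* KO against WT they were −0.0752 to −0.0351 for the members, −0.0224 to 0.0241 for complex I, −0.0218 to 0.0292 for complex II, −0.0136 to 0.0523 for complex III, −0.124 to −0.0631 for complex IV, −0.129 to −0.0343 for complex V and −0.0973 to −0.0454 for assembly factors. In *Mettl3* KO against WT they were −0.0243 to 0.0135 for the members, −0.0726 to 0.0647 for complex I, 0.0374 to 0.167 for complex II, −0.041 to 0.0731 for complex III, −0.0766 to −0.034 for complex IV, −0.113 to −0.0476 for complex V and 0.0386 to 0.0793 for assembly factors. In *Trdn-as* KO against *Mettl3* KO they were −0.104 to −0.0303 for the members, −0.113 to −0.0459 for complex I, −0.18 to −0.0461 for complex II, −0.0872 to −0.0106 for complex III, −0.106 to 0.0249 for complex IV, −0.0903 to 0.0122 for complex V and −0.226 to −0.074 for assembly factors. The cause was not tested. With 2 libraries a genotype, a lone library left in a group is assumed to vary like the others, and members of low value have intervals of up to 1.42 on the log2 scale to either side.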
